A study of Mus musculus with 96 samples.

Results

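The 10 genes described here encode the replicative helicase MCM2-7 (Mcm2, Mcm3, Mcm4, Mcm5, Mcm6 and Mcm7), proteins that load or activate it at origins of replication (Cdc6, Gins2 and Cdc45) and the sliding clamp PCNA (Pcna). They were taken by symbol from the 24321 gene symbols measured, and all 10 were present. Each was followed cell by cell along the level of Hba-a1, an alpha-globin gene whose transcript accumulates as red cell precursors mature. The material was 96 single cells of marrow from C57BL/6 mice, all labelled erythroid precursor with the heterozygous genotype Rpl11 +/lox, Rpl11 being 1 of the genes for the large subunit of the ribosome. The series covers the stages between the burst-forming unit-erythroid, which is an early progenitor, and the basophilic erythroblast, a dividing precursor with a nucleus. Cells were captured and imaged for the erythroblast surface protein Ter119 on a Fluidigm C1 microfluidic chip, and cDNA was made by SMART-Seq full-length chemistry. The labels used here name no wild-type cells, no separate animals and no Cre driver, so all cells count as 1 sample, differences between cells are given as descriptions with no test, and every SD is over cells.

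Before S phase, the origin recognition complex and Cdc6 recruit Cdt1 and load the ring of MCM proteins 2 to 7 onto DNA, which licenses the origin. Cdc45 and the GINS complex, of which Gins2 is a subunit, then join the ring and turn it into the active helicase, and PCNA encircles DNA behind it to hold the polymerases in place. Transcription of many of these genes is driven by E2F factors at entry into the cell cycle. Erythroid progenitors and early erythroblasts divide rapidly, and division ends before the nucleus is expelled.

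RPKM values, in which reads are divided by transcript length in kilobases and by mapped reads in units of 1000000, are scaled for length and depth, so levels may be set side by side between genes, and a gene counted as detected at 1 RPKM or more. Of the 96 cells, 69 listed at least 1000 genes at that level, and the other 27 (28.1%, 19.4% to 38.2%, exact Clopper-Pearson interval at 95%) were left out. Among the 69, 14 carried markers of another blood lineage despite their erythroid label and were set aside, 7 of them meeting the neutrophil list, 9 the monocyte or macrophage list, 1 the mast cell or basophil list and 1 the T or NK cell list. The 55 kept cells were ranked by Hba-a1 and split into 3 bands. The globin-low band held 19 cells with 723 to 307302 RPKM of Hba-a1, the globin-middle band 18 cells with 321044 to 439819 RPKM, and the globin-high band 18 cells with 443162 to 570277 RPKM. Of 10 late progenitor markers, such as Klf1 and Epor, a median of 9, 8 and 7 were at 10 RPKM or more in globin-low, globin-middle and globin-high cells, and of 16 measured erythroblast markers a median of 9, 10 and 9.5. All 8 B cell markers were listed at 0 in every kept cell, and the median number of markers at that level was 0 for each of the other non-erythroid lists in every band. Summed over the list, neutrophil markers reached at most 132 RPKM in any globin-low, 12.9 RPKM in any globin-middle and 0.783 RPKM in any globin-high cell, and monocyte or macrophage markers at most 487 RPKM in any globin-low, 128 RPKM in any globin-middle and 0.322 RPKM in any globin-high cell. Cell 68, in the globin-low band, had few erythroid markers, and the median difference given below was -5.46 without it. Estimated depth, in units of 1000 reads, had a median of 6638 in globin-low, 7428.5 in globin-middle and 7983 in globin-high cells, with 1540 to 11632 over all kept cells. The number of genes detected ran the other way, at a median of 3446 in globin-low, 1848.5 in globin-middle and 1237 in globin-high cells.

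Sequence before the start of transcription is shown first because the members are textbook E2F targets. RefSeq promoter windows of build GRCm38.p6, each from 250 bases before to 50 after a start, matched 8 of the 10 genes (9 windows). They were searched on both strands for the E2F letters TTTCCCGC, TTTCGCGC, TTTGCCGC and TTTGGCGC, overlapping matches counted, and for the CCAAT box. The E2F letters were present in 5 of the 9 windows, those of Mcm3, Mcm5, Mcm6, Cdc6 and 1 of 2 Mcm7 windows, whereas 2.26% of all 32851 windows of the same length held them. CCAAT was present in 8 of the 9 windows, against 37.4% of all windows. Below are Mcm6 with 3 E2F matches (chr1:128359706-128359955, minus strand), Mcm5 with 2 (chr8:75109259-75109467, plus strand, cut at the annotated start of the gene at 75109468, ahead of the transcript start at 75109509 from which the window is counted) and Cdc45 with none (chr16:18811973-18812222, minus strand), chosen to show a window with a close pair of matches from each of 2 helicase genes and a window without the letters. Capitals mark E2F matches, and each run of 12 capitals is a pair of overlapping matches on opposite strands.
Mcm6: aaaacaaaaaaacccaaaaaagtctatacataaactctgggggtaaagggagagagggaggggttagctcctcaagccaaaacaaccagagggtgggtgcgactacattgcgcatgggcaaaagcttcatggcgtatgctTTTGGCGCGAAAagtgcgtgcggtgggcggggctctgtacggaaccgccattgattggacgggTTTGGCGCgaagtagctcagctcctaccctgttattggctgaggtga
Mcm5: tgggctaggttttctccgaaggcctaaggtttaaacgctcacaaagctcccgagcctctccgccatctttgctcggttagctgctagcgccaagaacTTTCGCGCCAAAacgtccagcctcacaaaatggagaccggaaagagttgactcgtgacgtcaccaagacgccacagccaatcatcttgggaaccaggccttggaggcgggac
Cdc45: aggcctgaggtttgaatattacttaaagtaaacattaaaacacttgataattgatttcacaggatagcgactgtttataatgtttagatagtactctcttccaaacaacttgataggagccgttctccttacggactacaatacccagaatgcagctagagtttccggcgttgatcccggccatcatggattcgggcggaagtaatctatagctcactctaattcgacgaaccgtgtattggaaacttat
In Mcm6 the overlapping pair begins 110 bases before the start and the other match 47 bases before it, and in Mcm5 the pair begins 153 bases before the transcript start at 75109509. The Cdc45, Mcm2 and Pcna windows held none of the letters. A match is a stretch of sequence and not a measured binding site, and binding was not measured in these cells.

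Globin-high cells listed all 10 replication genes at lower mean levels than globin-low cells, and no globin-high cell detected as many of the genes as any globin-low cell. Each globin-low cell detected 7 to 10 of the 10, with a median of 9. Each globin-middle cell detected 1 to 10, with a median of 6.5, and each globin-high cell 0 to 5, with a median of 1.5. The median member was detected in 94.7% of globin-low, 50% of globin-middle and 11.1% of globin-high cells. Over the 4231 genes detected in at least 10 kept cells, detection fell too, with medians of 63.2%, 33.3% and 16.7% of cells. All 6 Mcm genes were detected together in 14 of 19 globin-low cells (73.7%, 48.8% to 90.9%), in 1 of 18 globin-middle cells (5.56%, 0.141% to 27.3%) and in 0 of 18 globin-high cells, a count that allows a share of up to 16.7% if 3 counts are taken as the limit and 18.5% by the exact interval. No member at all was detected in 6 of 18 globin-high cells (33.3%, 13.3% to 59.0%), against 0 of 19 globin-low cells. These intervals and limits reflect nothing but the error of counting cells. All cells count as 1 sample, so spread between animals is not covered. PCR copies were not marked with molecular identifiers, so reads are not independent molecules either.

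**Figure D1:**
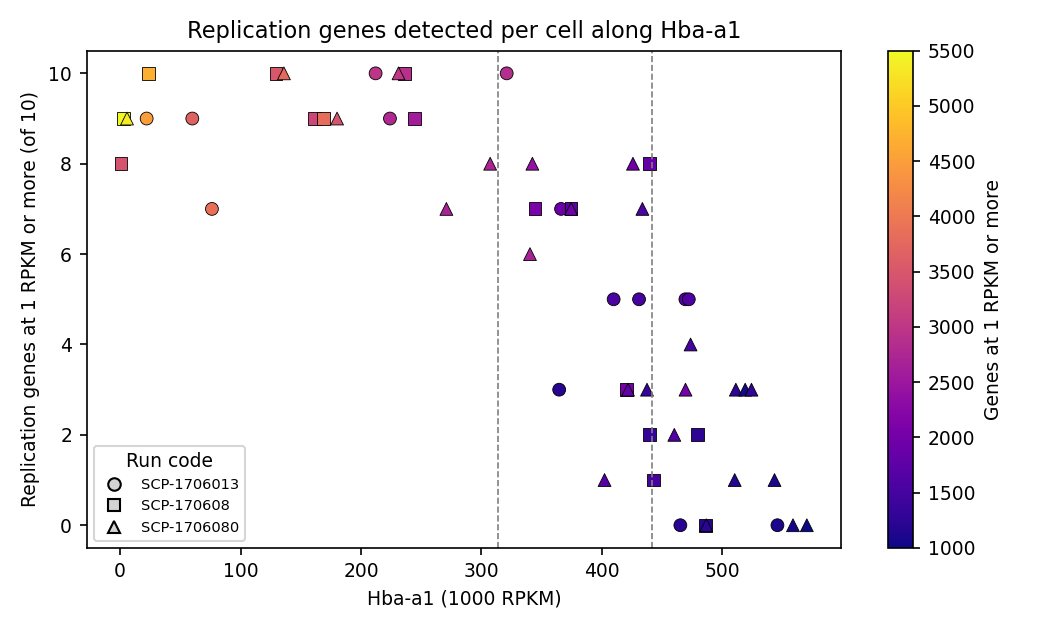
Replication genes detected at 1 RPKM or more in each of the 55 kept cells (vertical axis, of 10) against Hba-a1 (horizontal axis, units of 1000 RPKM, dashed lines between bands), with point colour for the number of genes detected and marker shape for the run code. All cells with 7 or more genes lie in the globin-low and globin-middle bands, and no globin-high cell has more than 5.

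As the difference in mean log2(RPKM + 1) between globin-high and globin-low cells, the members ran from -7.25 (Mcm6) to -3.73 (Cdc6), with a median of -5.36. All 10 were lower by at least 1 and in the same direction within each of the 3 run codes of the sample descriptions. The codes held only 4, 3 and 11 globin-high cells, beside 5, 8 and 6 globin-low cells. These codes split the cells into blocks by cell number, whereas sample titles and column headers give every cell a single code. They may therefore not stand for separate runs. Most genes of these cells also had lower values, since 70.5% of the 4231 genes detected in at least 10 kept cells were called lower by the same rule, with a median difference of -2.17 and quartiles of -3.45 and -1.08. A count of 10 of 10 is therefore close to what most genes did, and the members' difference of -5.36 lies below the lower quartile of all genes. The level in globin-low cells bounds how far a gene can differ, and genes were not matched for it. In globin-low cells the median member was detected in 94.7% of cells and the median gene tested in 63.2%. Beside it, 10 constitutive genes had a median difference of -3.48, or -4.04 over the 9 that passed the same filter, and their part in the members' difference was not tested. The number of genes a cell detected moved with the band as well. Among cells with at least 2000 genes, 8 in an upper and 9 in a lower band after ranking anew, the median member difference was -1.93, close to the -1.78 of all genes tested there. These 8 and 9 cells had Hba-a1 medians of 341366 RPKM in the upper and 23735.5 RPKM in the lower band. Only 1 of the 18 globin-high cells had 2000 genes or more, against 5 of 18 globin-middle and 19 of 19 globin-low cells. The new upper band was therefore mostly made of cells from the other bands. Among the 18 cells with 1500 to 2500 genes, split in equal parts by Hba-a1 (medians of 460221 RPKM in the higher and 374528 RPKM in the lower part), it was -0.78, against -0.40 for all genes, with 4 of 10 members lower by at least 1 and Mcm3, Mcm4 and Gins2 above 0. In both subsets the members' difference was smaller and came nearer to that of all genes.

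The rest of the account takes the genes by role, and the heat map by cell shows every value. Mcm6 had the largest difference and, in globin-low cells, the highest level of the 6 helicase subunits. Its lowest, median and highest levels were 0, 0 and 8.36 RPKM in globin-high cells, against 5.89, 260 and 599 RPKM in globin-low cells. The globin-high and globin-low cells overlapped in the 1 globin-low cell that had under 10 RPKM. Globin-middle cells spanned 0 to 329 RPKM of Mcm6, with a median of 44.7 RPKM. Mcm6 was detected in 19 of 19 globin-low, 14 of 18 globin-middle and 2 of 18 globin-high cells.

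**Figure D2:**
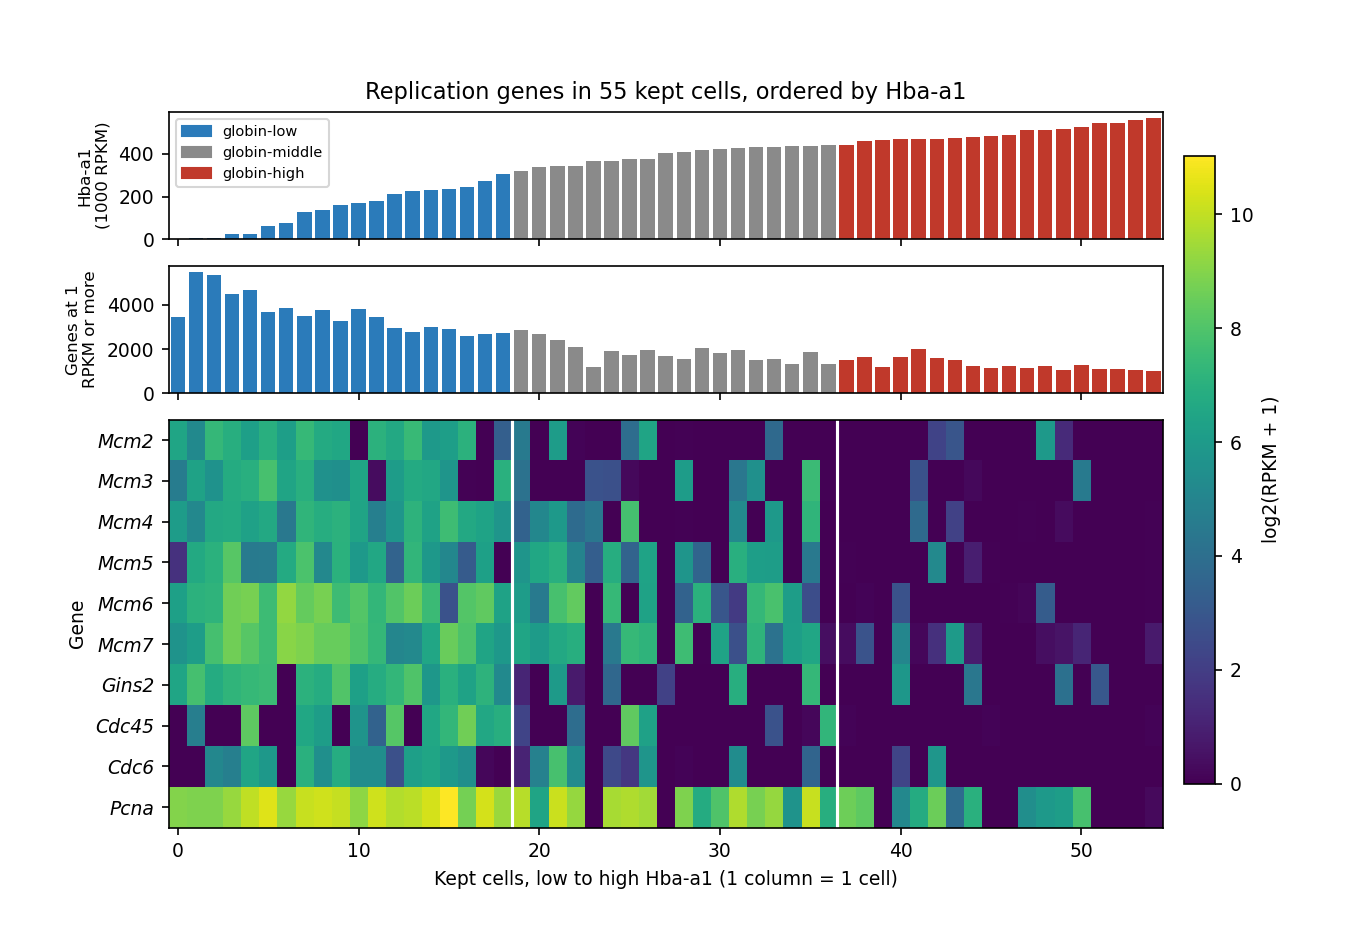
Values of the 10 genes (rows, log2(RPKM + 1) by colour) in the 55 kept cells (columns, ordered by Hba-a1 from low to high, with white lines between bands), under bars for the Hba-a1 level and the number of genes detected per cell. Coloured squares thin out towards the right for every gene, and Pcna is the one most often present among globin-high cells.

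Mcm7, another subunit of the ring, had 0, 0.304 and 63.4 RPKM as lowest, median and highest in globin-high cells, against 32.7, 219 and 535 RPKM in globin-low cells (difference -6.26). It was detected in 5 of 18 globin-high and 19 of 19 globin-low cells, and its highest globin-high value lay above its lowest globin-low value. Mcm4, which in the ring lies between Mcm6 and Mcm7, had 0, 0 and 12.9 RPKM in globin-high cells, against 20.5, 86.8 and 194 RPKM in globin-low cells (difference -5.97). Every globin-high value of Mcm4 was thus below every globin-low value, which held for 2 members, Mcm4 and Pcna, and for 0.922% of all genes tested.

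Mcm2, whose protein also binds histones, had 0, 0 and 61.2 RPKM in globin-high cells, against 0, 95.5 and 171 RPKM in globin-low cells (difference -5.09). Mcm3 had 0, 0 and 21.9 RPKM in globin-high cells, against 0, 81.7 and 226 RPKM in globin-low cells (difference -4.94). Mcm5, which with Mcm2 forms the gate through which DNA enters the ring, had 0, 0 and 36.1 RPKM in globin-high cells, against 0, 62.1 and 290 RPKM in globin-low cells (difference -5.08). For these 3 subunits the bands overlapped, and 2 globin-low cells listed Mcm2 at 0, 1 listed Mcm3 at 0 and 1 listed Mcm5 at 0. The highest globin-high values also lay above some globin-low values over 0. Among these were 9.18 RPKM of Mcm2 (cell 47), 0.283 RPKM of Mcm3 (cell 22) and 2.00 RPKM of Mcm5 (cell 68). For Mcm5, 36.1 RPKM lay above the globin-low lower quartile of 22.3 RPKM.

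Of the activators, Gins2 had 0, 0 and 56.0 RPKM in globin-high cells, against 0, 128 and 263 RPKM in globin-low cells (difference -5.63). It was detected in 4 of 18 globin-high and 18 of 19 globin-low cells; the ranges overlapped, though all 18 of these globin-low cells were at 10 RPKM or more, against 3 globin-high cells. Cdc45 was not detected in any of 18 globin-high cells, where its highest value of 0.0777 RPKM was under the 0.175 RPKM that 3 reads gave at the median depth, while its lowest, median and highest levels in globin-low cells were 0, 52.0 and 400 RPKM (difference -4.15). It was the member most often missing from globin-low cells, with 12 of 19 detecting it (63.2%, 38.4% to 83.7%) and 7 listing it at 0.

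Cdc6, the loader, had 0, 0 and 54.0 RPKM in globin-high cells, against 0, 41.7 and 126 RPKM in globin-low cells (difference -3.73, the smallest of the 10). It was detected in 2 of 18 globin-high and 14 of 19 globin-low cells. Pcna was the most abundant and most often detected member, with 0, 38.7 and 384 RPKM in globin-high cells, against 427, 940 and 2093 RPKM in globin-low cells (difference -5.64). It was still detected in 11 of 18 globin-high cells (61.1%, 35.7% to 82.7%), although none reached the lowest globin-low value.

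**Figure D3:**
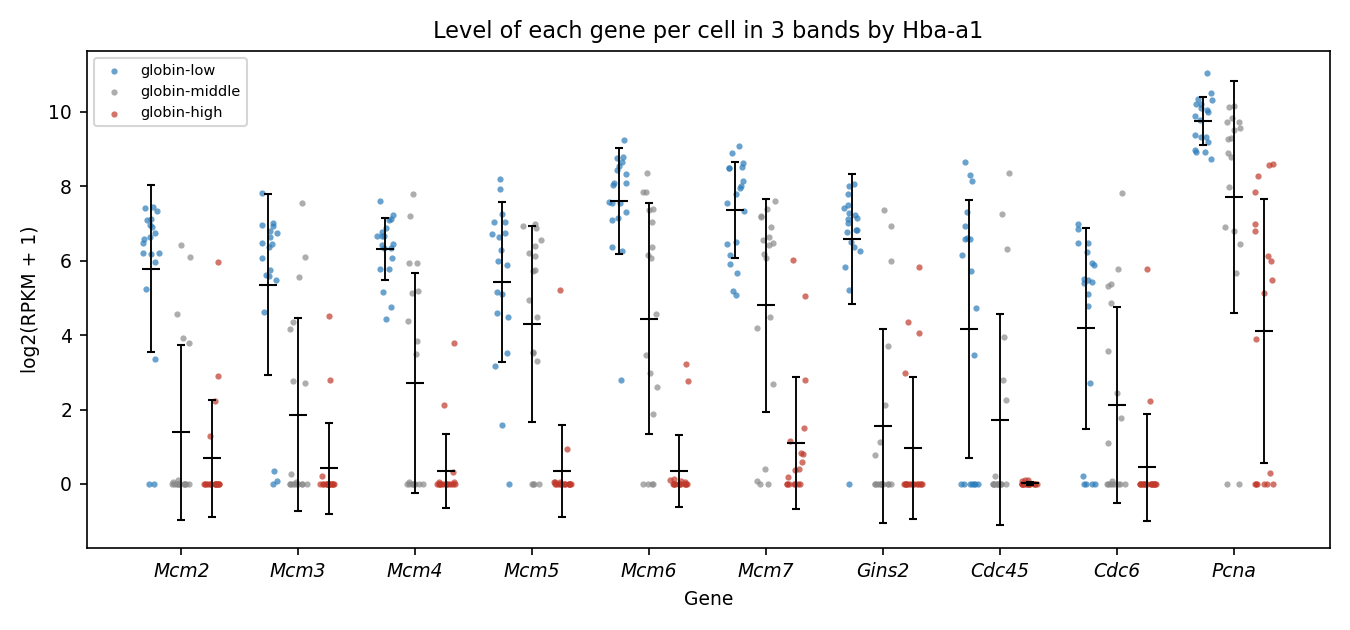
Level of each of the 10 genes per cell (log2(RPKM + 1)) in globin-low, globin-middle and globin-high cells, 1 point per cell with the mean and SD over cells. Many globin-middle cells are at 0 for a gene that others of the band hold well above 0, and for Pcna and Mcm4 the globin-high points all lie under the globin-low points.

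Values were mostly present in strength or missing. Of the 550 values of the 10 genes in the 55 kept cells, 211 were listed at exactly 0, 35 lay below 1 RPKM, 31 from 1 to 10 RPKM and 273 at 10 RPKM or above. At the estimated depths 1 RPKM of Mcm4 stood for a median of 28.7 reads in globin-high and 23.8 reads in globin-low cells, and 1 RPKM of Pcna for 12.1 reads in globin-high and 10.1 reads in globin-low cells, so values well under 1 RPKM were within reach of the depth. Amplification from single cells can lose rare transcripts before sequencing, and that loss was not measured.

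Within globin-low cells, the order of median RPKM levels was Pcna, Mcm6, Mcm7, Gins2, Mcm2, Mcm4, Mcm3, Mcm5, Cdc45 and Cdc6. Mcm5, Cdc45 and Cdc6 took the higher of 2 transcripts in each cell. Their places and counts here could rise with transcripts summed, which was not done for this order. Pcna was above Mcm6 in 19 of 19 cells. Mcm6 was above Mcm7 in 14 of 19, Mcm7 above Gins2 in 14 of 19 and Gins2 above Mcm2 in 13 of 19. From Mcm2 down, each neighbour in the order was higher than the next in 9 to 11 of 19 cells, so neighbours among these 6 genes had no settled order from cell to cell, and pairs farther apart were not compared. Among the 6 helicase subunits, whose proteins are assembled in equal numbers into the ring, the highest transcript level was that of Mcm6 in 11 cells, Mcm7 in 5, Mcm3 in 2 and Mcm2 in 1, with Mcm4 and Mcm5 highest in 0 cells.

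Globin-middle cells separated the members. Over all genes tested, the median gene was detected in 33.3% of globin-middle cells. Mcm5, Mcm6 and Mcm7 were each detected in 14 of 18 globin-middle cells (77.8%, 52.4% to 93.6%) and Pcna in 16. Mcm2 was detected in 5 (27.8%, 9.69% to 53.5%), Gins2 and Cdc45 in 6 each, Mcm3 in 7, and Mcm4 and Cdc6 in 9 each. This order did not follow the levels in globin-low cells, where Gins2 and Mcm2 had higher medians than Mcm5. For Mcm5, however, only the higher of 2 transcripts counted in each cell, so its level may be understated beside theirs. With transcripts summed, Mcm5 differed by -5.90 in place of -5.08 between globin-high and globin-low cells, and summed levels were not ranked. In mean log2 level, Mcm5 differed by -1.13 between globin-middle and globin-low cells and by -3.95 between globin-high and globin-middle cells. For Gins2 these differences were -5.03 and -0.60, and for Mcm2 -4.39 and -0.70. All 10 members were called lower in globin-middle than in globin-low cells, as were 60.6% of all genes, and 6 of 10 (Mcm4, Mcm5, Mcm6, Mcm7, Cdc45 and Pcna) were called lower in globin-high than in globin-middle cells, as were 17.4% of all genes. The 2 comparisons share the globin-middle cells. At a detection level of 10 RPKM, Mcm5 was in 13, Mcm6 in 11 and Mcm7 in 13 of the 18 globin-middle cells, against 5 for Mcm2, 5 for Mcm3 and 4 for Gins2. By run code, Mcm5 was detected in 5 of 5, 4 of 5 and 5 of 8 globin-middle cells and Mcm2 in 1 of 5, 1 of 5 and 3 of 8. Mcm3 was detected in 5 of 5 cells of 1 run code and in 1 of 5 and 1 of 8 of the others. Its place thus differed between the run codes of the sample descriptions.

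Co-detection shows the same arrangement in pairs. For each of the 45 pairs, the cells with both genes were divided by the cells with either gene, and the median ratio was 0.842 in globin-low, 0.40 in globin-middle and 0.143 in globin-high cells. In globin-low cells Mcm4, Mcm6, Mcm7 and Pcna were detected together in all 19 cells, and the lowest count for any pair was 9. In globin-middle cells the pairs among Mcm5, Mcm6, Mcm7 and Pcna were detected in 12 to 14 of 18 cells, while Mcm2 with Mcm3, Mcm3 with Cdc45 and Gins2 with Cdc45 were each detected in 1 cell. Mcm6 without Mcm2 occurred in 10 globin-middle cells and Mcm2 without Mcm6 in 1. Mcm5 without Gins2 occurred in 9 globin-middle cells and Gins2 without Mcm5 in 1. In globin-high cells 20 of the 45 pairs were detected in 0 cells, and the most frequent pair, Mcm7 with Pcna, was in 5 of 18. Across all kept cells the ratio ran from 0.303 for Mcm3 with Cdc45 to 0.826 for Mcm7 with Pcna. These ratios rise with how often each gene is detected, so they describe the cells and do not measure dependence between genes.

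**Figure D4:**
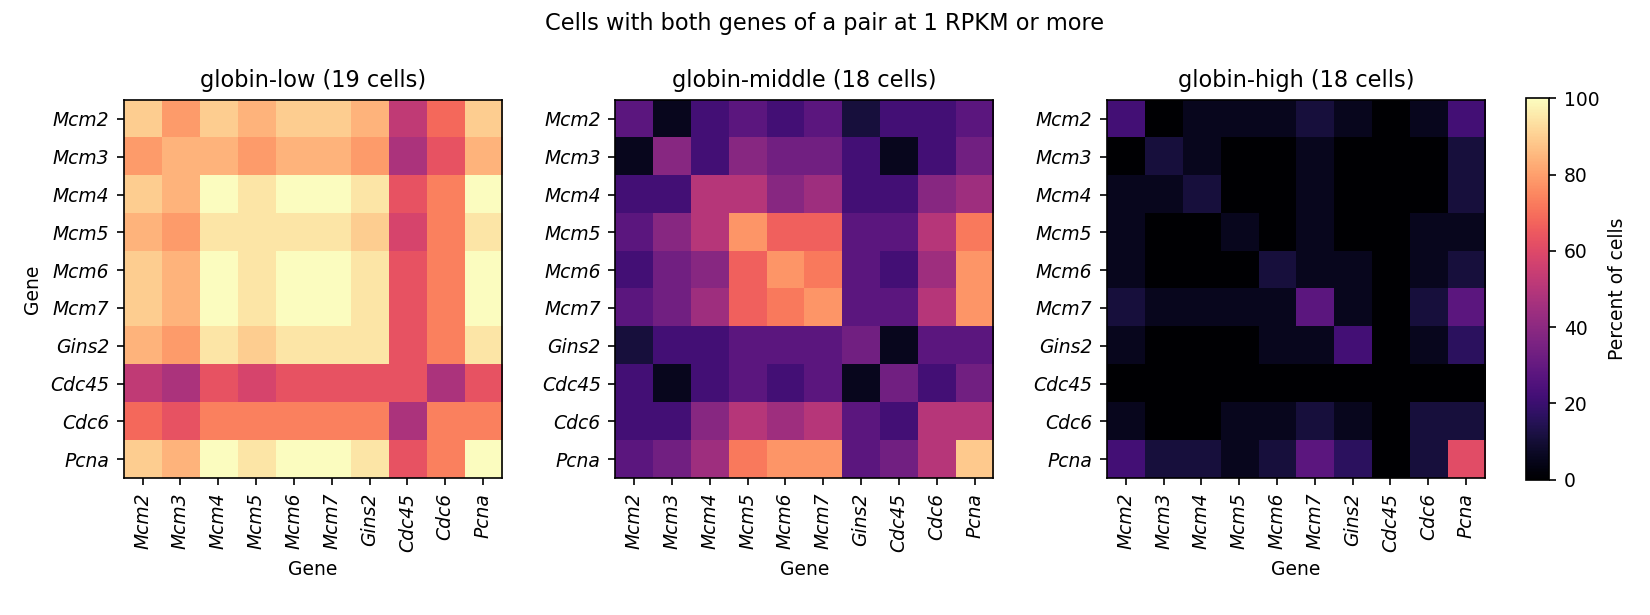
Percent of cells in which both genes of a pair (rows and columns) were at 1 RPKM or more, for 19 globin-low, 18 globin-middle and 18 globin-high cells, the diagonal giving each gene alone. A block of Mcm5, Mcm6, Mcm7 and Pcna stands out in globin-middle cells, where pairs with Mcm2, Mcm3, Gins2 or Cdc45 are in fewer cells.

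Globin-middle cells differed widely in the members they detected. Cell 90, with the lowest Hba-a1 of the band (321044 RPKM) and its highest number of genes (2860), detected all 10 members. Near the upper limit of the band, cell 73 at 439292 RPKM detected 8, and cell 72, at a like 439819 RPKM, detected 2. Cell 32, at 402294 RPKM, detected 1 member and none of the Mcm genes, yet detected all 20 genes of a G2 and M phase list, at an estimated depth of 9196 in units of 1000 reads. Cell 9 was the opposite, with 6 members and 3 of these 20 genes. Cell 94, with 3 members and none of Pcna above 1 RPKM, was the shallowest kept cell at 1540 in the same units.

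Lists of related genes set the members beside the rest of the replication and cell cycle machinery. Of 22 other origin and helicase genes, 16 were called lower and 0 higher in globin-high than in globin-low cells, with a median difference of -2.30. Of the 17 of them that passed the filter of detection in at least 10 kept cells, 14 were called lower, with a median of -2.97. Under that filter 70.5% of all genes were called lower, with a median of -2.17, so the count of this list is near that of all genes. The other origin and helicase genes included Gins4, a partner of Gins2 in the GINS complex, at a median of 0 RPKM in globin-high and 179 RPKM in globin-low cells (difference -5.76). Cdt1, which brings the MCM ring to the origin, was at 0 RPKM in globin-high and 64.5 RPKM in globin-low cells (difference -4.70). Gins1 differed by -4.83. Tipin, of the fork protection complex, differed by -5.13, and 10 of 18 globin-high cells still detected it. Of 26 polymerase, clamp loader and fork genes, 25 were called lower and 0 higher, with a median of -4.21. All 23 that passed the filter were called lower, with a median of -4.52. The clamp loader subunit Rfc4 had a median of 0 RPKM in globin-high and 397 RPKM in globin-low cells (difference -7.10), and differences were -6.74 for Rpa2 and -6.35 for Rpa3, subunits of the protein that coats single-stranded DNA, and -6.26 for the flap nuclease gene Fen1.

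All 8 genes of deoxynucleotide supply, which all passed the filter, were called lower, beside 70.5% of all genes, with a median difference of -3.59. Dut, which removes dUTP, differed by -6.58, the thymidylate kinase gene Dtymk by -6.06, the dCTP pyrophosphatase gene Dctpp1 by -3.84, and Rrm1, the large subunit of ribonucleotide reductase, by -5.15 while still detected in 9 of 18 globin-high cells. Of 13 regulators of the passage from G1 to S, 8 were called lower and 0 higher, with a median of -1.43. Over the 10 that passed the filter, 8 were called lower, near the share of all genes, with a median of -2.05. Cyclin E1 (Ccne1) differed by -6.18, cyclin E2 (Ccne2) by -3.82, Uhrf1, which recruits DNA methylation to new DNA, by -2.71, and E2f4, an E2F factor known as a repressor in resting cells, by -2.44 with detection in 15 of 18 globin-high cells. Of those that passed the filter, E2f2 and Ccna2 (cyclin A2) were not called, with differences of 0.65 and -0.72. They were detected in 14 and 17 of 18 globin-high cells.

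Genes of G2 and mitosis differed from the members in the same cells. Of 20 such genes, 3 (Cdc20, Aurkb and Plk1) were called lower and 1 higher, with a median difference of -0.23. All 20 passed the filter, under which 70.5% of all genes were called lower. Globin-low, globin-middle and globin-high cells detected a median of 15, 15.5 and 14.5 of the 20. Ube2c, a ubiquitin-conjugating enzyme of the anaphase-promoting complex, was the gene called higher, with a median of 1396 RPKM in globin-high and 215 RPKM in globin-low cells (difference 2.86), while 0.733% of all genes tested were called higher. Cdc20, an activator of that complex, differed by -2.09 and the mitotic kinase gene Aurkb by -1.34. Ccnb2 (cyclin B2) differed by -1.24 but not in the same direction in every run code. The mean log2 level over the list was 4.37 ± 1.32 in globin-high and 4.56 ± 1.65 in globin-low cells (SD, 18 and 19 cells), where the 10 members averaged 0.88 ± 0.77 in globin-high and 6.25 ± 0.82 in globin-low cells. Of the 10 constitutive genes, all were called lower, beside 70.5% of all genes tested, Ppia by -7.54, Eef1a1 by -6.97, Hprt by -6.74 and Gapdh by -6.70. Their mean log2 level was 3.89 ± 1.20 in globin-high and 8.18 ± 0.68 in globin-low cells, so housekeeping transcripts moved with the members, and their part in the members' differences was not tested.

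**Figure D5:**
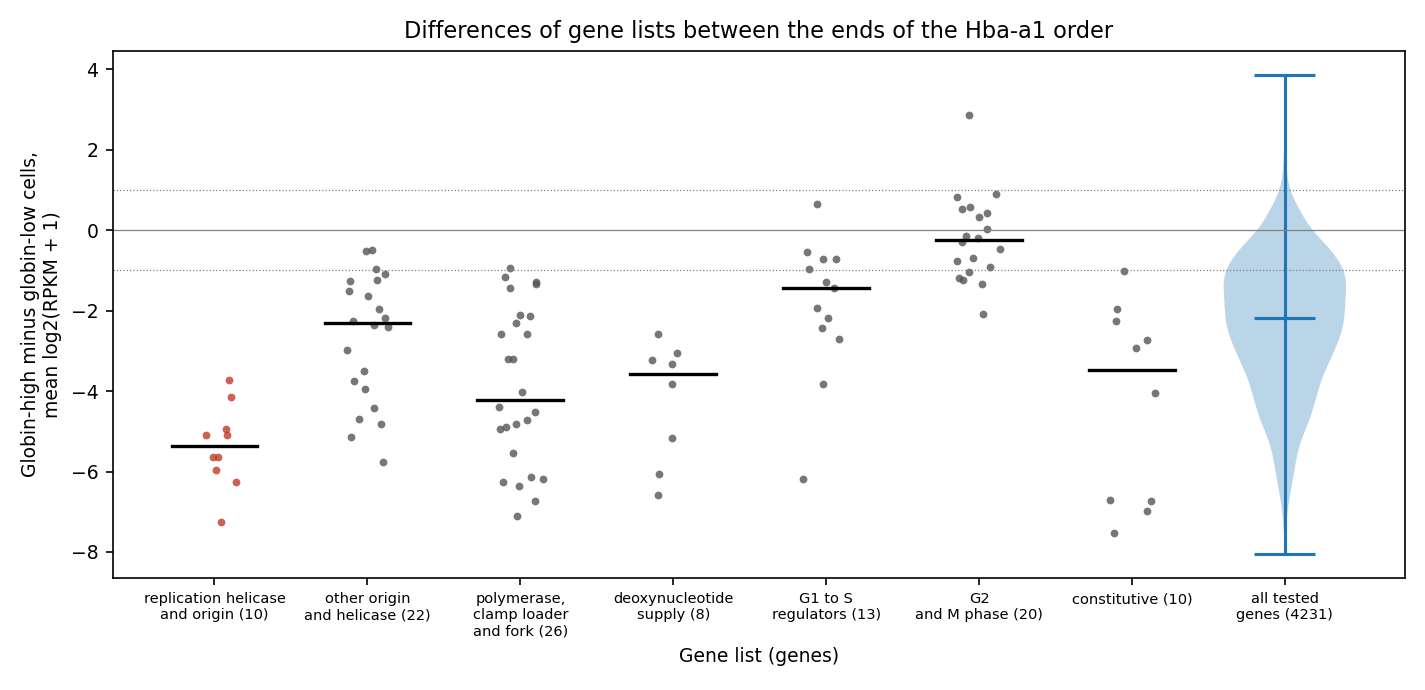
Difference in mean log2(RPKM + 1) between globin-high and globin-low cells for each gene (points) of the replication helicase and origin genes and 6 other lists, with the median as a bar, beside the distribution of the 4231 genes that passed the filter, which some list members did not. The 10 genes lie between -7.25 and -3.73 and the G2 and M phase genes around 0, with Ube2c above at 2.86.

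Across the 55 kept cells, the mean log2 level of the 10 members had a Spearman rho of -0.87 and a Pearson r of -0.85 with Hba-a1. With the number of genes detected rho was 0.90, with the constitutive genes 0.89, with the polymerase and fork list 0.93, with the estimated reads -0.40 and with the G2 and M list 0.016. All of these come from the same libraries, share their depth and their number of genes detected, and are given as descriptions. Hba-a1 reads are also part of the mapped reads by which every RPKM is divided. Within the 18 globin-middle cells, rho was -0.25 with Hba-a1, 0.60 with the number of genes, 0.83 with the constitutive genes and 0.92 with the polymerase and fork list. Within the 19 globin-low cells, where 7 to 10 members were detected in each, rho was -0.058 with Hba-a1, 0.16 with the number of genes and 0.025 with the constitutive genes, against 0.56 with the other origin genes, 0.48 with the deoxynucleotide genes and 0.30 with the polymerase and fork list. Of the single members, Pcna followed the mean of the other 9 most closely over the kept cells (rho 0.86) and Cdc45 least (0.37), and Mcm3 did not follow it within globin-middle cells (rho 0.0055).

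Outside all lists, the gene most like the mean of the members over the 55 kept cells was Ptma, which encodes the acidic nuclear protein prothymosin alpha, with a rho of 0.89 among 1346 genes detected in at least 50% of kept cells (median rho 0.55). It was followed by Rps2 (0.89), Gm10653 (0.88), Rpl3 (0.87), Hmgb1-rs17 (0.87), Atp5j (0.87), Cfl1 (0.86), Rplp0 (0.86), Rpl11 (0.86) and Rpl38 (0.86). Rps2, Rpl3, Rplp0, Rpl11 and Rpl38 encode cytoplasmic ribosomal proteins. Within globin-middle cells Ptma kept a rho of 0.90, where the median gene had 0.24, and Rps2 had 0.59.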

How the data were processed

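RPKM values made by the authors were used as deposited, with 34899 transcript rows for 24321 gene symbols. Per the submitters' processing notes, TopHat2 2.0.9 and mm9 were used, the remaining steps not stated in the sources at hand. A gene took the value of its highest transcript in each cell (Mcm5, Cdc45 and Cdc6 have 2 transcripts). Exact zeros were read as listed at 0. Depth was estimated from the steps between low values with transcript lengths of GRCm38, found for 97.6% of transcripts, and could be off by a factor of 2 because reads and read pairs were not told apart. Cells were put aside where 1 of 8 non-erythroid lists had 3 or more markers, and 50% or more of those measured, at a minimum of 10 RPKM. The lists were of T or NK cells, B cells, stroma or endothelium, megakaryocytes, neutrophils, stem or multipotent cells, monocytes or macrophages, and mast cells or basophils, and 0 cells met those of B cells, megakaryocytes, stroma or endothelium, and stem or multipotent cells. Doublets were not called. Values were taken as log2(RPKM + 1), which understates differences of low genes. A gene was called lower or higher where its mean log2 values were 1 or more apart and had 1 direction within every run code that held 3 or more cells of both bands. Shares and medians over all genes rest on the 4231 genes detected in at least 10 kept cells, leaving out globin genes, whereas counts of a list cover all its measured genes unless the filter is named. Named genes were the 10 members, up to 4 of each other list with the largest difference among genes present in 50% or more of the cells of 1 end band, and the 10 genes outside the lists nearest to the members' mean. Plk1 and some single cells were chosen for mention from their values. The members, lists and band rule were chosen with earlier results of these data known. The erythroblast marker Epb42 was not analysed here. Scripts ran in Python 3.11.15 with pandas 2.3.3, numpy 2.4.6, scipy 1.17.1 and matplotlib 3.10.9, and were tested on simulated data.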

Additional observations from a re-analysis of the deposited data

Results flagged for a closer look

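Among the 27 cells with under 1000 genes, which entered no comparison, some values lay above every kept cell. Cell 4, with 189 genes and an estimated depth of 66 in units of 1000 reads, listed Mcm6 at 13160 RPKM, where the kept cells reached 599 RPKM. Cell 62, with 923 genes, listed Mcm5 at 907 RPKM (kept cells up to 290 RPKM) and Mcm2 at 322 RPKM (kept cells up to 171 RPKM). Cell 42, with 485 genes, listed Mcm2 at 468 RPKM. Cell 36, with 708 genes, listed Gins2 at 907 RPKM (kept cells up to 263 RPKM). Of the 14 cells set aside for markers of other lineages, 5 detected all 10 replication genes.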

How the results depend on the processing

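No paired analysis was possible because the bands share no replicate numbers and the results come from no test. All 10 members were lower within each run code, though a code held as few as 3 globin-high cells. Over 19 other settings, 187 of 190 single-gene differences between globin-high and globin-low cells stayed below 0. A detection level of 10 RPKM could not change these differences, and summing transcripts changed only those of Mcm5, Cdc45 and Cdc6. The median difference of -5.36 was -3.71 with no cell set aside, -7.60 and -2.91 with pseudocounts of 0.1 and 10, -3.80 with 2 bands of equal size, -4.56 with cells ordered by the share of Hba-a1, and -1.93 with at least 2000 genes per cell, where Cdc45 (-0.39) and Pcna (-0.96) were not called. A range of 1500 to 2500 genes, chosen after seeing the data, gave -0.78, with 4 of 10 members called lower, 24.7% of all genes called lower, and differences of 0.62 for Mcm3, 0.74 for Mcm4 and 0.83 for Gins2. Leaving out the 7 cells under 100000 RPKM of Hba-a1, also chosen then, gave -5.66. Rescaling every cell to a total of 1000000 gave -5.50. With globin genes removed before rescaling, the median difference was -5.60 and 64.8% of all genes were called lower. The share of all genes called lower was 46.8% with a pseudocount of 10 and 15.2% with no filter on low values. With at least 2000 genes per cell and bands ranked anew, all 6 Mcm genes were detected in 12.5% of the upper band (1 of 8) and 100% of the lower band. Only 1 of the 18 globin-high cells entered that setting. Fixed Hba-a1 limits gave 0% of globin-high and 100% of globin-low cells, with 9 of 10 members called lower. The cause of these changes was not tested. Without each run code in turn, the median lay between -5.45 and -4.81. With 18 or 19 cells a band and 1 sample, only large shares can be told apart.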

Other observations

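The 14 cells set aside for markers of other lineages, mostly those of neutrophils and monocytes, combined a low alpha-globin level with detection of many replication genes. Their median Hba-a1 was 264 RPKM and their median of Mpo, the gene for myeloperoxidase, 5880 RPKM. They detected 2 to 10 of the 10 replication genes, with a median of 8, and 6 of the 14 detected all 6 Mcm genes together (42.9%, 17.7% to 71.1%, exact Clopper-Pearson interval at 95%). Pcna was detected in 13 of 14, at a median of 278 RPKM, and Mcm7 in 13 of 14, at a median of 88.2 RPKM. Compared with globin-low cells, their mean log2 levels differed by -0.29 (Cdc45) to -2.75 (Mcm4). The number of members was split, with 4 cells at 2 and 7 at 9 or 10. A median of 4155.5 genes was detected in these cells, against 3446 in globin-low cells. Within the 14, the 4 cells with 2 members detected 1842, 2047, 2295 and 2957 genes, the 4 lowest numbers. The 7 cells with 9 or 10 members detected 3359 to 5890. Cell 77 went the other way, with the highest number of genes, 6013, and only 4 members. Cell 11, with 6 members, and cell 74, with 7, detected 3556 and 4036 genes, within the range of cells with 9 or 10. Cell 56, with 2 members, had the lowest estimated depth of the 14, at 184 in the units used above. The parts of the number of genes and of depth in the counts of members were not tested.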
